A study of Mus musculus with 4 samples.

Results

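Open chromatin was examined at 7 genes that mark or maintain neural stem cells, Nes, Prom1, Fabp7, Msi1, Msi2, Nr2e1 and Bmi1, out of 21938 protein-coding genes in the annotation. The genes were chosen by name, but with earlier results on their peaks in these 4 libraries known, so their peaks are a description and give no independent evidence of a difference between the groups. The assay was ATAC-seq, in which a transposase cuts DNA where it is not packed in nucleosomes, on mouse glioma. The mG7080 line, gliomasphere cells from a genetic mouse model of glioma, had been grown as tumors in C57BL/6 hosts. Hosts were either wild type (WT, 2 tumors) or lacked Esm1 (Esm1 KO, 2 tumors), the gene for the secreted proteoglycan Endocan, and the study used female animals throughout. The comparison asks whether the host's Endocan leaves a mark on the chromatin of the tumor. The deletion was in the host and the glioma cells of both groups carried the same mutations, so the KO libraries can hold Esm1 DNA from the implanted cells. The hosts were young adults, for which the study's methods and its reporting form give different ages in weeks. Both groups come from 1 cell line, and the sources do not say with one voice whether the libraries were made from tumor tissue, from fresh cells or from cells regrown as spheres.

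Neural stem cells line the ventricles of the forebrain and descend from radial glia, and glioma cells with their properties can start tumors and grow as spheres. Several of the 7 genes serve as markers of this state: Nes encodes the intermediate filament Nestin, Prom1 the membrane protein CD133, and Fabp7 the brain fatty acid binding protein of radial glia. The others help to keep cells dividing without differentiating: Msi1 and Msi2 encode Musashi proteins, which bind RNA and control its translation, Nr2e1 encodes the nuclear receptor TLX, and Bmi1 encodes a subunit of Polycomb repressive complex PRC1.

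The deposited lists held 63000 and 100088 peaks in WT replicates 1 and 2 and 82975 and 85418 in KO replicates 1 and 2. They carry no read counts, so the height of each peak, the number of read ends stacked at its summit, was recovered from its fold and p-value. The genome background, the lowest background of a library and a guide to its depth, ranged from 4.41 to 6.85 read ends. KO replicate 2 stood apart from the other libraries: across 13310 promoters its log2 heights had a Pearson r of 0.881 to 0.902 with each of them, against 0.937 to 0.959 among the other 3 libraries. This is across genes, which are not independent replicates. No library had a peak over the body of Esm1, so the lists could not check the genotype. Of 6 genes used to check the glioma label, Sox2, Olig2, Olig1, Pdgfra and Nes had a promoter peak in every library and Cspg4 in none. Nes is also one of the 7 genes. Of the 14746 genes with a promoter peak in any library, 90.3% had one in every library, so these peaks say little about the label.

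Promoter sequences of the genes are shown first. They are windows around annotated starts and need not hold the summits. Every Bmi1 summit, for example, at 18676685 to 18676750, lay before the window printed for that gene. RefSeq promoter windows of the GRCm38.p6 build, 250 bases before to 50 bases after a start, matched 6 of the 7 genes. The windows of 5 genes are given 5′ to 3′ on the strand of the gene, with matches on either strand to 12 motifs in capitals.
Nes promoter (chr3:87970843-87971142, plus strand): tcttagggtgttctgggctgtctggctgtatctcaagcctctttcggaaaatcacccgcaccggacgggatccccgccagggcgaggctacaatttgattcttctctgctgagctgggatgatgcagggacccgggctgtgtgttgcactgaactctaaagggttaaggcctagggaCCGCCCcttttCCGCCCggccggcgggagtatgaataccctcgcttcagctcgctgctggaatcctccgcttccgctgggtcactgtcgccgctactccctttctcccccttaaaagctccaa
Fabp7 promoter (chr10:57784673-57784972, plus strand): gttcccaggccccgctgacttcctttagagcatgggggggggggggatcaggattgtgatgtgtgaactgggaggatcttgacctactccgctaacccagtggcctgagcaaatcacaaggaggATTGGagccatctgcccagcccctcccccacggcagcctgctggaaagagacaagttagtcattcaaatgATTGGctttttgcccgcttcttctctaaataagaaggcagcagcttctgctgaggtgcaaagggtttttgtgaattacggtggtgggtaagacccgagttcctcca
Nr2e1 promoter (chr10:42583541-42583840, minus strand): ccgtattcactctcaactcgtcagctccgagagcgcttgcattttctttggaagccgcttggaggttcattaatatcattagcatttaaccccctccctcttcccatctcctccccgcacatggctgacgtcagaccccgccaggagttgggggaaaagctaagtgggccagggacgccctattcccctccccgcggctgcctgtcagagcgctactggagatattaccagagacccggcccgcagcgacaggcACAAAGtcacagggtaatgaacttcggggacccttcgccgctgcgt
Msi2 promoter (chr11:88718180-88718479, minus strand): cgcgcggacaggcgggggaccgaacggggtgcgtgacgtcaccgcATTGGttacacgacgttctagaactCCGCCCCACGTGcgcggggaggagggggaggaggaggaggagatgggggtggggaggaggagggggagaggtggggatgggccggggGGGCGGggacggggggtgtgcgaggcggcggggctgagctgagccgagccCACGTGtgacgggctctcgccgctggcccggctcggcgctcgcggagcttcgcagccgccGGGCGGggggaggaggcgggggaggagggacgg
Bmi1 promoter (chr2:18676768-18677067, plus strand): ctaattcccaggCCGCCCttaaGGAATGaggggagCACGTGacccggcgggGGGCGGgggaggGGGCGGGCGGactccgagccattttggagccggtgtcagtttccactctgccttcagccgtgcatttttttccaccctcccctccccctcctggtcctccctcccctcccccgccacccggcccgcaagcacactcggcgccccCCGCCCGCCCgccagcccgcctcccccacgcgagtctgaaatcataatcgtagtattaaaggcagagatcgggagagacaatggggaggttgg

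The windows differed in composition. That of Msi2 had a CpG content of 1.01 times that given by its base composition, and those of Nr2e1, Bmi1 and Nes had 0.770, 0.708 and 0.702. Fabp7 had 0.276, below the median of 0.384 over all 32851 RefSeq windows. A GC box (GGGCGG) was matched 6 times at Bmi1, 3 times at Msi2 and 2 times at Nes, with some of the matches at Bmi1 overlapping each other, and 35.7% of all windows held one. The MYC E-box CACGTG, in 7.15% of all windows, occurred 2 times at Msi2, where 1 copy directly adjoined a GC box, and 1 time at Bmi1. A TEAD motif (GGAATG, in 14.7% of windows) also lay at Bmi1. The capitals at Fabp7 are 2 CCAAT boxes (CCAAT, 37.4% of windows), a motif that Msi2 held 1 time, and those at Nr2e1 are a SOX motif (ACAAAG, 18.7% of windows). The other motifs searched were the octamer ATGCAAAT, the E-boxes CAGCTG and CATATG, the homeodomain motif TAATTA, the NFI palindrome, the AP-1 motif TGANTCA and TATAAA. A match describes the letters only and is not a site of binding.

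All 7 genes had a promoter peak, within 1000 bp of an annotated start, in all 4 libraries. This holds for 90.3% of the 14746 genes with a promoter peak in any library, so the members' count says little about them. None was open in both WT and no KO library (0.197% of those genes) or in both KO and no WT library (0.441%). The peaks were weak for most of the 7. Nes, Prom1 and Nr2e1 did not exceed the 11.4th percentile of promoter height in any library, while Msi2 lay between the 45.2nd and 76.2nd percentile and Bmi1 between the 68.7th and 86.5th.

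Among the markers, Nes had its tallest promoter peak at 18 and 29 read ends in WT replicates 1 and 2 and at 24 and 37 in KO replicates 1 and 2. The highest value was that of KO replicate 2, and the groups overlapped. The summit of the tallest peak lay 0.455, 0.518 and 0.555 kb after the first start in WT replicate 1, WT replicate 2 and KO replicate 1. KO replicate 2 had 2 promoter peaks of equal height, 5.51 times the genome background. Their summits lay at -0.692 kb, that is before the first start, and at 0.575 kb. The place of the tallest peak is thus not shown to differ. The printed Nes window was covered by a peak in 2 libraries, WT replicate 2 and KO replicate 2.

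Prom1 gave 30 and 31 read ends in the WT and 28 and 31 in the KO libraries. These read ends were the most even of the 7 genes, without regard to the depth of the libraries. Over the genome background they ran from 4.53 in WT replicate 2 to 6.80 in WT replicate 1. All its summits lay 667 to 759 bp inside the gene from the nearest start. Fabp7 reached 24 and 39 read ends in WT and 36 and 64 in KO. Once each height was set against the median promoter of its library, both KO values were above both WT values. Counted from the start, the summit of Fabp7 lay at 6 bp in WT replicate 1 and -84 bp in KO replicate 2. In WT replicate 2 it lay at -1291 bp and in KO replicate 1 at -1242 bp, in wide peaks that reached into the promoter. These last summits were outside the promoter window, so the Fabp7 heights do not all belong to the same site.

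Among the genes that maintain the state, Msi1 had 31 and 35 read ends in WT and 43 and 56 in KO, and its groups did not overlap on either scale. Msi2, the taller of the Musashi pair, had 61 and 81 in WT and 72 and 109 in KO. Its centred log2 heights, those set against the median promoter of each library, stood at -0.09 and -0.10 in WT, with -0.06 and 0.33 in KO. The KO values were thus both higher, KO replicate 1 by little and KO replicate 2 by more.

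Nr2e1 had the lowest height of the 7 genes in WT replicate 1, with 15 and 30 read ends in WT and 25 and 40 in KO. Its 15 was just above the lowest height called anywhere in that library, 13. Bmi1 was the tallest, with 86 and 101 in WT and 90 and 123 in KO. The groups overlapped at both genes after centring.

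**Figure D1:**
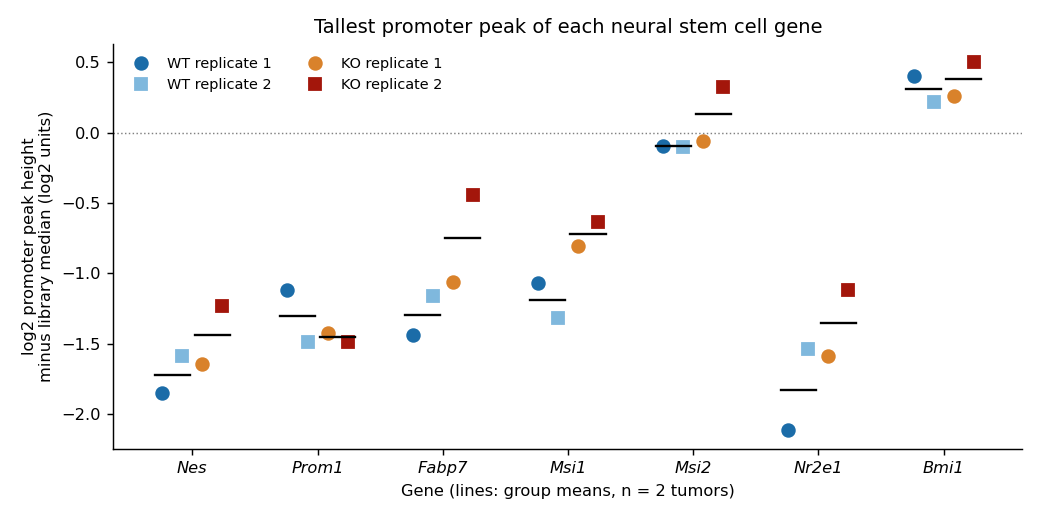
Height of the tallest promoter peak (vertical axis, log2 read ends minus the library's median over 13310 promoters) for each of the 7 genes (horizontal axis), with 1 point per library and a line for the mean of each group of 2 tumors. KO replicate 2 (dark red squares) is the highest point at every gene but Prom1.

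Set against the library medians, KO replicate 2 was highest at 6 of the 7 genes, all but Prom1, where 29.3% of all promoters had their highest value in that library. Divided by the genome background instead, it was highest at 5. Both KO libraries were above both WT libraries at 3 genes, Fabp7, Msi1 and Msi2, against 15.0% of all promoters, and both were below at none, against 16.2%. Over the genome background it was 2 genes, Fabp7 and Msi1, against 3.76%. That KO replicate 2 was looked at alone was decided after its values were seen.

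None of these differences passed the test. Limma was fitted to the log2 heights of all 13310 promoters, and 2 promoters passed an adjusted p of 0.05 as higher in KO (0.0150%) and 0 as lower (0%). Of the 7 genes 0 passed in either direction, 0 had an unadjusted limma p under 0.05 and the adjusted p was 0.998 for each, while 525 of all promoters had an unadjusted p under 0.05. The largest estimate was that of Fabp7, 0.55 ± 0.26 (log2, KO minus WT, SE, n = 2 and 2), with a 95% interval from -0.01 to 1.10. It was 0.24 without KO replicate 2 and 0.85 without KO replicate 1. As the Fabp7 summits lay at different places in different libraries, this estimate does not compare a single site. The estimates of Nr2e1 and Msi1 were both 0.47, with SE of 0.32 and 0.23. Leaving out 1 library at a time moved Nr2e1 between 0.18, without WT replicate 1, and 0.76, without WT replicate 2. With all annotated transcripts, whose added starts make the intronic region of Msi1 a promoter, Msi1 was at 0.18. Nes followed at 0.28 ± 0.30, Msi2 at 0.23 ± 0.14 and Bmi1 at 0.07 ± 0.11. Prom1 alone was below 0, at -0.15 ± 0.28. The median of the 7 was 0.28 and that of all promoters -0.005, and 6 of 7 were above 0 against 48.6% of all. Centring on the genome background lowered the median of all promoters to -0.11, and 5 of the 7 genes were then above 0 against 21.6% of all. Without KO replicate 2 the median of the 7 was 0.07, with 5 above 0. Since the labels name separate tumors but only 2 a group, the p-values rest on little spread, and fewer open cells cannot be told apart from less opening per cell in such bulk libraries.

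**Figure D2:**
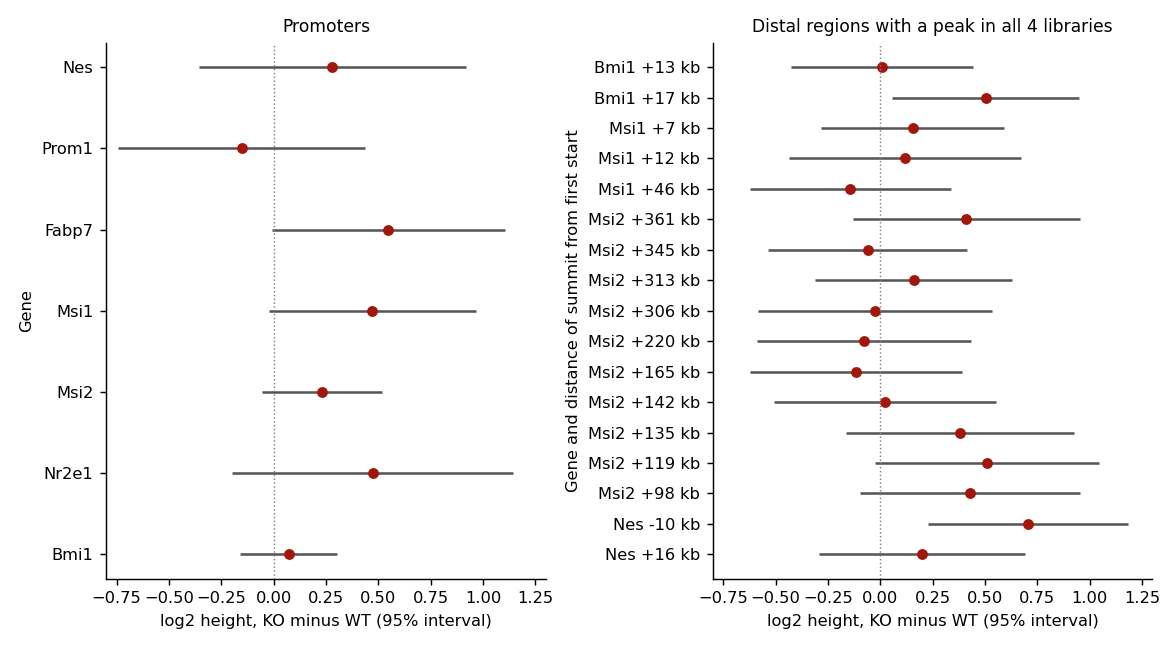
Difference in log2 peak height, KO minus WT, from limma (horizontal axes, with 95% intervals that are not adjusted for the number of tests) for the 7 promoters (left) and the 17 distal regions with a peak in all 4 libraries (right, named by gene and distance of the summit from its first annotated start). The intervals of all 7 promoters include 0, and those of the Nes region 10 kb before the start and the Bmi1 region at 17 kb do not, but neither passed after adjustment.

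Away from promoters the 7 genes differed widely. Merged regions outside every promoter window were counted over each gene with 20 kb on either side, which gave 55 of the 106735 distal regions in the genome. Msi2, the longest gene with 379 kb, held 41 of them, Nes 6, Msi1 3, Prom1 and Bmi1 2 each and Nr2e1 1. Fabp7 had none. Per 100 kb searched, Nes had 12.2 and Msi2 9.78, while Prom1, a gene of 108 kb, had 1.35. The flanks also reach neighbors, Crabp2 and Bcan at Nes, Commd3 and Spag6 at Bmi1, Fgfbp1 at Prom1, Smpdl3a at Fabp7, Pla2g1b at Msi1 and Ostm1 at Nr2e1, and a region there cannot be assigned to the stem cell gene. Msi2 had no other protein-coding gene within its flanks.

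The distal sequences below belong to some of the regions described in the following paragraphs. Each is the 201 bases around the tallest summit, from the mm10 build and on the plus strand, with matches to the same motifs in capitals.
Nes upstream region (chr3:87960903-87961103, plus strand): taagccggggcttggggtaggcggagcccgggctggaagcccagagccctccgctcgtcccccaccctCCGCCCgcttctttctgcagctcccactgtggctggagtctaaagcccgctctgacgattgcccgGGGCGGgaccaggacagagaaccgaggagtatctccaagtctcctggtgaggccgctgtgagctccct
Nes intronic region (chr3:87974357-87974557, plus strand): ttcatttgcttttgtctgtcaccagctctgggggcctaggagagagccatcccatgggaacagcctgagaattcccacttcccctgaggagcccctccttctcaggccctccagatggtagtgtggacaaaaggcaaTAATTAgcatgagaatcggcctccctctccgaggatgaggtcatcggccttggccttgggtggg
Msi1 intronic region (chr5:115436558-115436758, plus strand): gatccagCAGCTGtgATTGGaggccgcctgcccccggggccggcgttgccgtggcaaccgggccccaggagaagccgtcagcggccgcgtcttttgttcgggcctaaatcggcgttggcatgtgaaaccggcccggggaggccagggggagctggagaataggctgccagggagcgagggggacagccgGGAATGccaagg
Msi2 intronic region (chr11:88356890-88357090, plus strand): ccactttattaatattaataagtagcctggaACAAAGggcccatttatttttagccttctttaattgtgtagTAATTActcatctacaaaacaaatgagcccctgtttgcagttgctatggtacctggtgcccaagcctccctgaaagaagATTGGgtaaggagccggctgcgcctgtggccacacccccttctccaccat
The first lies upstream of Nes with 2 GC boxes, and 6.26% of the 106666 such windows that could be read held at least 1. The second, in an intron of Nes, has 1 homeodomain motif (4.95% of windows), and the third, in an intron of Msi1, has an E-box CAGCTG (17.0%), a CCAAT box (22.1%) and a TEAD motif (12.2%). The fourth, in an intron of Msi2, has a SOX motif (15.8%), a homeodomain motif and a CCAAT box. Over all 55 windows, 16 (29.1%) held CAGCTG and 8 (14.5%) the SOX motif.

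A peak in all 4 libraries was found for 17 of the 55 regions, against 32.9% of distal regions in the genome. They were all 3 of Msi1, both of Bmi1, 2 of Nes and 10 of Msi2. No region was open in both WT libraries alone (1.61% in the genome) or in both KO libraries alone (1.81%). With shares this low few such regions would be met among 55, so their absence says little about these genes.

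KO replicate 2 alone accounted for 26 regions, against 8.82% of distal regions in the genome, and these were 22 of the 41 at Msi2 and 4 of the 6 at Nes. WT replicate 2, which had the most peaks, was alone at 4 (16.0% in the genome), WT replicate 1 at 3 and KO replicate 1 at 1. At Msi2 the 4 libraries had 14 and 15 regions in WT and 12 and 35 in KO. Nes had 2 in each of the other libraries and 6 in KO replicate 2. At Msi1, Prom1, Bmi1 and Nr2e1 no region was open in KO replicate 2 alone.

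**Figure D3:**
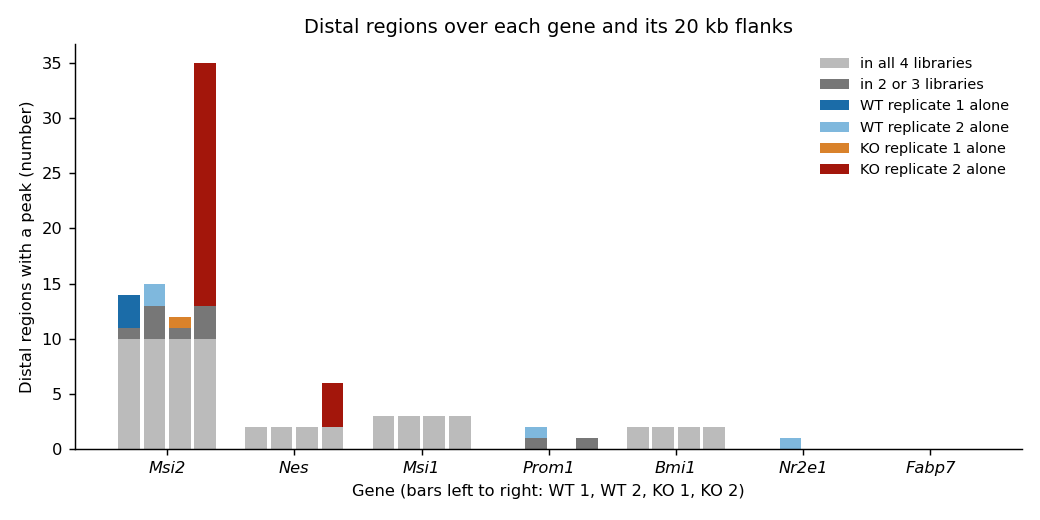
Number of distal regions with a peak (vertical axis) over each gene and its 20 kb flanks (horizontal axis), with 1 bar per library split by whether the region had a peak in all 4 libraries, in 2 or 3, or in that library alone. The bar of KO replicate 2 stands at 35 for Msi2 and 6 for Nes, with 22 and 4 regions seen in it alone.

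Msi2 was among the genes with the greatest such share. Of 2314 genes with at least 10 distal regions, 3 had 50% or more in KO replicate 2 alone: 4930572O03Rik with 6 of 11, Msi2 with 22 of 41 and Akap13 with 7 of 14. By comparison 12 genes reached 50% in WT replicate 2 alone and 0 in either other library. By number, Msi2 ranked 2nd among all 17464 genes with a distal region. Nes, with 6 regions, was below the minimum of 10. Of 6724 genes with at least 5 distal regions, 84 had 50% or more in KO replicate 2 alone.

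The regions at Msi2 seen in KO replicate 2 alone were spread along the gene, 19 of the 22 in introns. Their heights ran from 22 to 53 read ends with a median of 29, and the lowest height called in the other libraries was 13 to 16. The −log10 q ran from 2.03 to 15.9 and was at least 5 in 12. The tallest, at 88471652 to 88472551 of chromosome 11, had 53 read ends. A library without a peak has no recovered height, so these regions are not shown to be closed in the other 3.

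The local background moved with them. Over Msi2 and its flanks the median local background of the peaks was 1.25 and 1.0 times the genome background in WT and 1.13 and 1.61 times in KO. In the 200 kb before the flank on the left of the map it was 2.06 times in KO replicate 2, against 1.11 to 1.18 in the others, and 7 of 24 regions were in that library alone. On the right it was 1.26 against 1.0 to 1.17, with 2 of 10. Within 1 Mb on either side, Msi2 included, 38 of 146 regions were seen in KO replicate 2 alone, and the share on the whole of chromosome 11 was 12.4%. The part of this background in the counts was not tested.

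**Figure D4:**
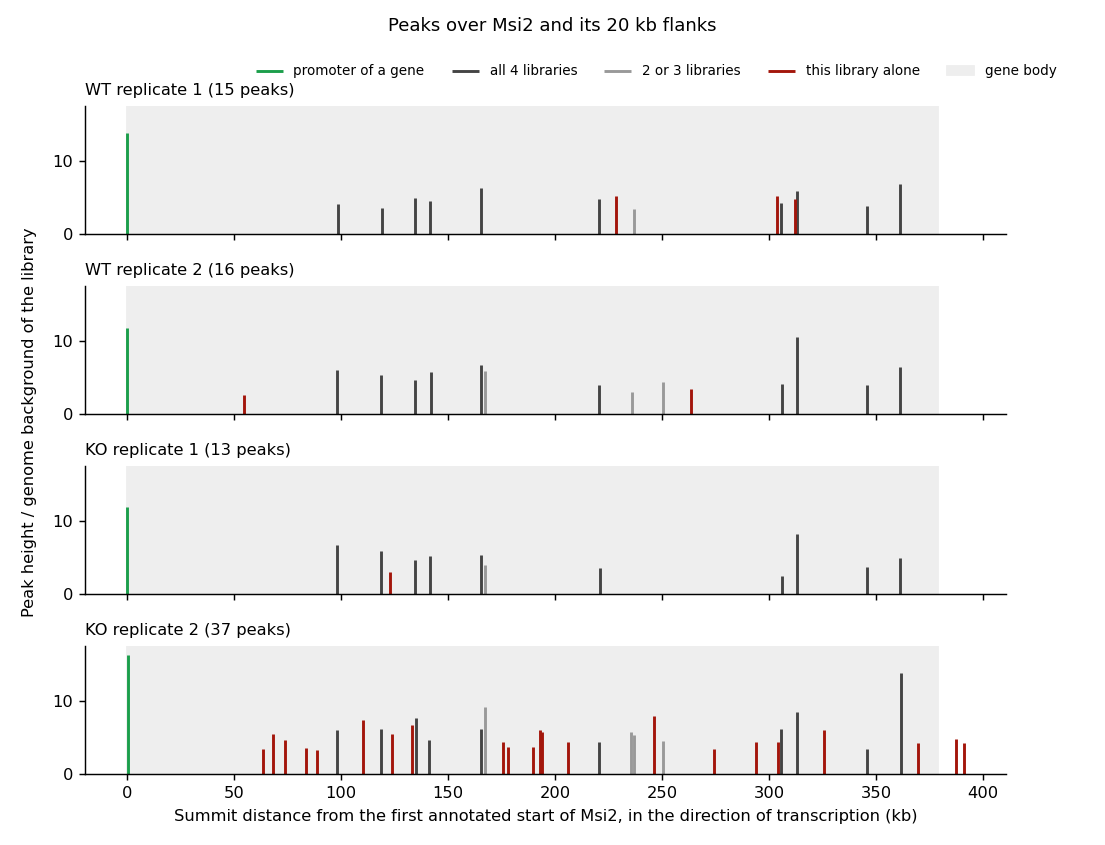
Peaks over Msi2 and 20 kb on either side, 1 panel per library, as height divided by the genome background of the library (vertical axis, no unit) against the distance of the summit from the first start in the direction of transcription (horizontal axis, kb). Colors give the promoter peak and whether the region was open in all 4 libraries, in 2 or 3 or in that library alone, and KO replicate 2 has 37 peaks where the others have 13 to 16.

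The 10 Msi2 regions open in every library had heights of 16 to 30 read ends in WT replicate 1, 27 to 72 in WT replicate 2, 15 to 49 in KO replicate 1 and 23 to 93 in KO replicate 2. The pair tallest over the genome background both lay in introns. The first, at 88356150 to 88357625 and shown above, had 30 and 44 read ends in WT and 30 and 93 in KO, so only KO replicate 2 was high. Its log2 difference was 0.41 ± 0.27, and leaving out KO replicate 1, which left KO replicate 2 as the single KO tumor, turned it to 1.19 with an adjusted limma p of 0.0449, whereas the adjusted p was 0.62 to 0.9999 under the other settings and leaving out KO replicate 2 gave -0.37. Without KO replicate 1, 0.242% of all distal regions passed as higher in KO. The other, at 88404620 to 88405726, had 26 and 72 in WT and 49 and 57 in KO, with a difference of 0.16 ± 0.23.

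At Nes the region at 87960508 to 87961260 of chromosome 3 lay 9817 bp upstream of the gene and over no other protein-coding gene. It had 31 and 40 read ends in WT and 47 and 84 in KO. Both KO values were higher on this scale. After centring its difference was 0.71 ± 0.24, the largest of the 17 regions, with an unadjusted limma p of 0.0044 and an adjusted p of 0.999. It was 0.33 without KO replicate 2 and 1.09 without KO replicate 1. The region at 87986836 to 87987881, downstream of Nes and within Bcan, the gene of the brain proteoglycan brevican, had 36 and 45 in WT and 36 and 71 in KO.

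**Figure D5:**
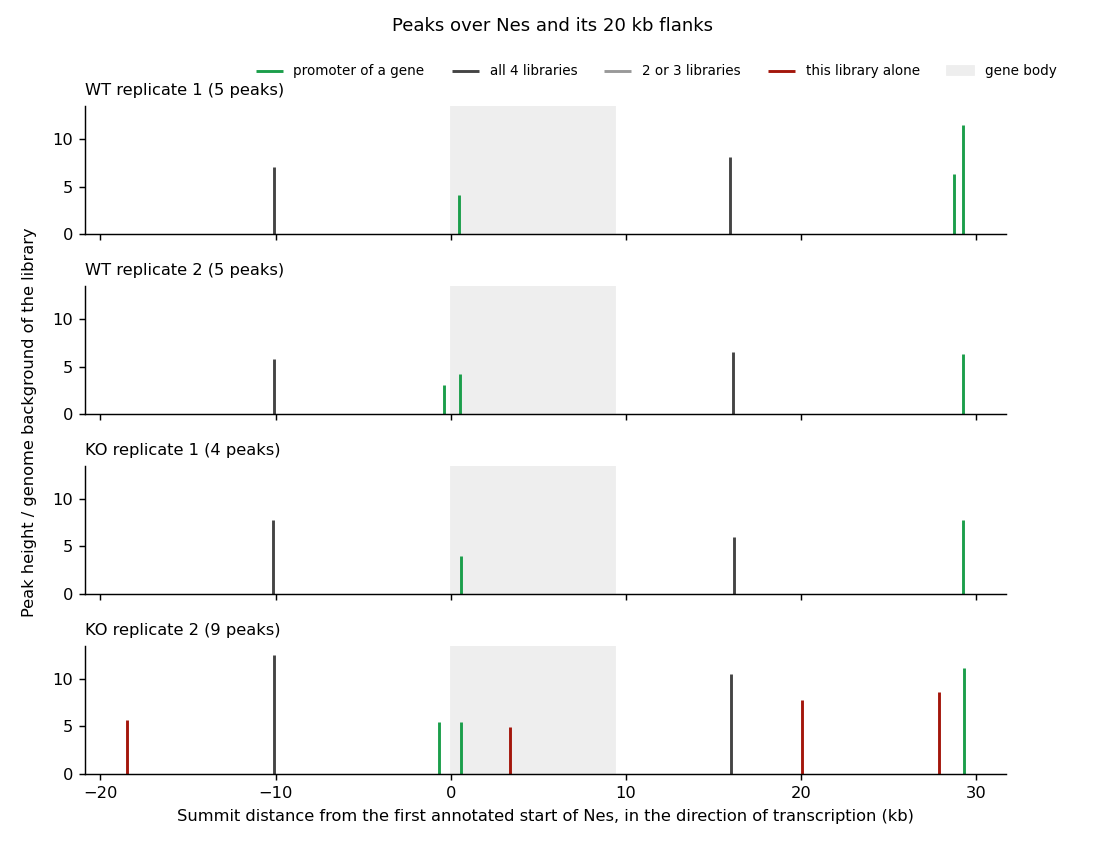
Peaks over Nes and 20 kb on either side, 1 panel per library, as height divided by the genome background of the library (vertical axis, no unit) against the distance of the summit from the first start of Nes (horizontal axis, kb). Green lines are promoter peaks of Nes or a neighbor, and the 4 red lines in KO replicate 2 are the regions seen in it alone.

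Of the 4 Nes regions seen in KO replicate 2 alone, 1 was in the gene itself, at 87974379 to 87974588 with 33 read ends. It lay in an intron, 3250 bp from the nearest start, and Nes is known for an enhancer in its second intron that is active in neural progenitors. Whether the peak falls on that enhancer was not tested. The other 3 lay over neighbors, 1 over Crabp2 with 38 read ends and 2 over Bcan with 52 and 58. The one with 58 was 1066 bp from a start of Bcan, just outside its promoter window. The median local background of peaks over Nes and its flanks was 1.69 and 1.07 times the genome background in WT and 1.43 and 2.19 times in KO. In the 200 kb beyond the flanks it was 1.47 and 1.66 times in KO replicate 2, against 1.25 to 1.56 and 1.70 to 1.79 in the others. In those 200 kb stretches 0 of 6 and 0 of 17 regions were in that library alone.

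The distal regions of Msi1 and Bmi1 were shared by all libraries. The Msi1 region at 115436255 to 115437153 of chromosome 5, in an intron and partly over an antisense transcript, had 55 and 83 read ends in WT and 72 and 94 in KO and had the highest mean over the genome background of the 55. Its difference was 0.16 ± 0.22. The region at 115475509 to 115476365, 19810 bp beyond Msi1 and nearest to the start of Sirt4, had 35 and 50 in WT and 35 and 49 in KO. That is nearly the same values in both groups.

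Both Bmi1 regions were downstream, toward Spag6, a gene of the sperm tail. The nearer, at 18689034 to 18690751 of chromosome 2, had 50 and 78 read ends in WT and 62 and 76 in KO, with a difference of 0.01 ± 0.22. The farther, at 18693849 to 18694866 and over Spag6, had 42 and 51 in WT and 62 and 83 in KO. Its difference was 0.50 ± 0.22, with an unadjusted limma p of 0.0283. With all annotated transcripts this region touched a promoter window and left the distal fit. Of the 15 regions then fitted, 1 had an unadjusted limma p under 0.05.

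Prom1 and Nr2e1 had only low distal peaks. An intronic Prom1 region at 44048536 to 44048906 had 23 read ends in WT replicate 2 and 27 in KO replicate 2. A region beyond Prom1, nearest to the start of Fgfbp1, and the single Nr2e1 region each had 20 in WT replicate 2 alone.

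Of the 17 regions fitted, 0 passed in either direction, 2 had an unadjusted limma p under 0.05 and the adjusted p was 0.999 for all. Among all 35066 distal regions fitted, 13 passed as higher in KO (0.0371%) and 0 as lower (0%), with 1232 at an unadjusted p under 0.05. The median difference of the 17 was 0.16 against -0.008 for all, and 12 of 17 were above 0 against 48.5%. Without KO replicate 2, 7 of 17 were above 0.

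Other genes of the stem cell and radial glia program were read in the same way, from a list of 34 that does not include the 7. A promoter peak was found for 31 and 31 of them in WT and 30 and 33 in KO. Of the 34, 27 had one in every library, against 90.3% of genes with a promoter peak in any library. Of these 27, 0 passed limma in either direction, and the median difference was 0.14. An unadjusted limma p under 0.05 was found for 5, against 3.94% of all promoters. Sox9, Hes1, Notch1 and Vim were higher in KO and Lhx2 was lower. KO replicate 2 had the highest centred height at 18 of the 27, against the 29.3% of all promoters. Without KO replicate 2 the median was 0.01, and leaving out KO replicate 1 instead, so that KO was the single tumor KO replicate 2, let 2 of the 27 pass as higher in KO, against 1.21% of all promoters. They were Notch1, the receptor that keeps progenitors undifferentiated, with 21 and 26 read ends in WT and 32 and 87 in KO, and Vim, the filament gene of radial glia, with 29 and 35 in WT and 36 and 80 in KO. Notch1 also passed in a setting with both KO tumors, the crossed replicate block given at the end. Only Thbs4, which encodes a thrombospondin secreted by astrocytes, had a peak in both WT libraries and in no KO library. Of the genes with a promoter peak in any library, 0.197% did so. Its 19 and 20 read ends in WT were near the lowest heights called there, 13 and 16. A missing peak does not show that the promoter was closed in KO.

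The partners of Bmi1 in PRC1 were read next. All 11 were open in every library, as were 90.3% of promoters, and 0 passed limma in either direction. An unadjusted limma p under 0.05 was found for 1, against 3.94% of all promoters, and the median difference was 0.03. KO replicate 2 was highest at 0 of the 11, against 29.3% of all promoters, and the difference between the lists was not tested. Known targets of Bmi1, the Musashi proteins or TLX were read as well. Cdkn2a, the cell cycle inhibitor locus that Bmi1 represses, had 33 and 49 read ends in WT and 48 and 80 in KO, with an unadjusted limma p of 0.0271 and an adjusted p of 0.998. Its neighbor Cdkn2b lacked a peak in KO replicate 1. Numb, the Notch inhibitor whose translation Msi1 represses, and Cdkn1a, another cell cycle inhibitor, had differences of -0.06 and -0.18, with an adjusted limma p of 0.998 for each.

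Markers of other cells were read in the same libraries. Of 6 endothelial markers a promoter peak was seen for 1 and 3 in the WT and 1 and 2 in the KO libraries. Kdr had one in every library, Flt1 in WT replicate 2 and KO replicate 2, and Cldn5 in WT replicate 2. Cdh5, Pecam1 and Tek had none. Of 6 markers of microglia and macrophages it was 0 and 1 in WT and 1 and 2 in KO. Aif1 had one in every library but WT replicate 1, and Tmem119 in KO replicate 2. Cx3cr1, P2ry12, Csf1r and Adgre1 had none. For neurons 5 and 5 of 6 had one in WT and 4 and 5 in KO, and for T cells 0 of 4 in each library. Mature oligodendrocyte genes had 5 of 6 in WT replicate 1 and 2 of 6 in each other library, so WT replicate 1 and not KO replicate 2 was the library that differed there. The part of other cells in the results was not tested.

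The promoters most like each of the 7 over the 4 libraries, by the Euclidean distance of centred log2 heights, were Pth1r for Nes (0.162), Fbln7 for Prom1 (0.148), Cd63 for Fabp7 (0.139) and H2-Q7 for Msi1 (0.133). For Msi2 it was Cul4b (0.0699), for Nr2e1 Ajuba (0.232) and for Bmi1 Slc4a7 (0.0360). With 13310 promoters and 4 points such a neighbor is close by construction.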

How the data were processed

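The authors deposited 1 peak list per library. MACS2, HOMER and mm10 stand in the processing notes of the submitters, whereas the study's methods describe Bowtie2 and Genrich. The columns follow MACS2. Any shift of the reads for the transposase is not stated. For every peak the authors deposited its fold over local background, a ratio, with a −log10 p-value, a −log10 q-value and a score. Heights were recovered as the whole number of read ends that gave both the fold and the Poisson p, within 0.001 of −log10 p in every peak. The tallest peak of a promoter or region was used, as log2 height minus the library median.

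Genes and starts were those of GENCODE M21 (protein-coding, basic set), whose GRCm38 build is that of the files. Regions were peaks sharing at least 1 bp. Limma 3.58.1 (R 4.3.3), with trend and Benjamini-Hochberg adjustment, was fitted to all promoters or regions with a peak in all 4 libraries and tested on simulated data. A region lacking a peak in any library stayed out of the fit. The 7 genes, the lists and the motifs were chosen with earlier results of these data known. All 7 genes were named, with the 2 distal regions per gene that were tallest over the genome background, and list genes by presence or limma call. Others named were chosen after their values were seen. The files give no depth beyond the genome background, and the replicate numbers do not pair tumors. One gene of the lists is not reported here.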

Additional observations from a re-analysis of the deposited data

How the results depend on the processing

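Under all settings tried, 2 of them added after seeing the data (all annotated transcripts and a crossed replicate block), 0 promoters of the 7 genes passed limma. Distal regions past limma numbered 0 to 1 when libraries were left out in turn, the 1 without KO replicate 1, and 0 otherwise. Those fits called 87 distal regions of the genome when KO replicate 1 was left out and 7 when KO replicate 2 was, against 41 and 37 for WT replicates 1 and 2. A group left with 1 tumor was assumed to vary like the other.

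Distal regions open in all libraries, 17, became 9 with a −log10 q of at least 5, 11 where peaks had to cover 50% of a region and 26 with 50 kb flanks. WT-only regions became 1 with equal numbers of peaks and KO-only regions 2 with 50 kb flanks. Without single libraries they ranged from 0 to 4 and from 0 to 26, the 26 without KO replicate 1. Regions in KO replicate 2 alone became 17 with equal numbers of peaks. At Msi2 they were 14 with the stricter q and 13 with equal numbers, and at Nes 2 with all annotated transcripts, which add starts of Crabp2 and Bcan. The cause of the other changes was not tested.

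The Bmi1 promoter turned to -0.035 with centring on the genome background. The Bmi1 region at 18689034 turned to -0.0077 with the stricter q, -0.033 with equal numbers, -0.0016 with all transcripts and -0.074 with that centring. Without single libraries the ranges were 0.075 to 0.49 for the Nes promoter, 0.35 to 0.59 for the Msi1 promoter, 0.038 to 0.42 for the Msi2 promoter, 0.26 to 0.74 for the Bmi1 region at 18693849, 0.0017 to 0.31 for the Msi1 region at 115436255, -0.34 to 0.034 for the Prom1 promoter, -0.047 to 0.19 for the Bmi1 promoter, -0.20 to 0.51 for the Msi2 region at 88404620, -0.10 to 0.12 for the Bmi1 region at 18689034, -0.25 to 0.65 for the Nes region at 87986836, -0.35 to 0.060 for the Msi1 region at 115475509 and -0.37 to 1.19 for the Msi2 region at 88356150.

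With the replicate block 0 of the 7 promoters and 0 of the 17 regions passed, and 12 promoters and 11 distal regions did in the whole genome. Same-numbered tumors had deviations that correlated at -0.204, and a crossed replicate block passed 35 and 76, with 0 of the 7 genes' promoters or regions. Of the 27 promoters fitted from the stem cell and radial glia list it passed 1, that of Notch1. A height below the lowest one called, 13 to 16 read ends, was not detectable.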
